A study of Mus musculus with 60 samples.

Results

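The genes described here are 10 heat shock genes, Hspb1, Hspa1a, Hspa1b, Hsph1, Dnajb1, Hspa8, Hsp90aa1, Hspe1, Chordc1 and Bag3, taken by their Ensembl identifiers from a table of 18088 genes measured by RNA sequencing in mouse prefrontal cortex. All 10 have a row in the table, and all 10 passed the filter on low values that left 17804 genes for testing. The mice were C57BL/6J, either wild type (WT) or heterozygous for Trip12 (HT), a gene that encodes a HECT-type ubiquitin ligase; the labels do not describe the allele. Each genotype received vehicle, fluoxetine (a serotonin reuptake inhibitor) or lithium (a mood stabiliser), in females and in males, which gives 12 groups of 5 libraries. The drugs reached the pups through the milk of their mothers from postnatal day 3 to day 24, so lactating dams were dosed and the dose a pup took in is not given, and tissue was taken at day 25. Vehicle libraries of one genotype serve as the control for both drugs.

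Heat shock proteins are chaperones that hold, refold or hand over unfolded proteins. Their genes carry heat shock elements, inverted repeats of the unit GAA, to which the trimeric transcription factor HSF1 binds when unfolded proteins draw the chaperones away from it. In brain Hspa8 and Hsp90aa1 are abundant in neurons, where they also serve vesicle coat removal and kinase folding, while genes such as Hspa1a, Hspa1b and Hspb1 are kept low in unstressed tissue and are known to be readily induced in glia and vascular cells.

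The 60 libraries held 25.1 to 36.6 M reads, and the 10 genes together took 0.295% to 0.394% of them. Depth moved with the drug, from 26.6 to 31.0 M reads under vehicle to 32.7 to 36.6 M under fluoxetine and 25.1 to 35.9 M under lithium. Within males, the depth of lithium and vehicle libraries was 28.4 ± 3.19 M against 28.2 ± 1.53 M in WT and 29.8 ± 3.07 M against 28.1 ± 0.938 M in HT (SD, n = 5 each; two-sided exact permutation test, p = 0.93 and p = 0.29). Trip12 itself was higher, not lower, in the libraries labelled HT, by 0.11 ± 0.02 on the log2 scale (limma, adjusted p = 0.0014), so directions by genotype are given for libraries as labelled. All 10 markers of cortical excitatory neurons were detected, with a summed level of 49601 to 73259 normalized counts in each library, while the summed level of 10 olfactory bulb markers ranged from 677 to 16888. The lowest array weights in limma were 0.188, for replicate 2 of the WT males on fluoxetine, and 0.262, for replicate 1 of the HT males on vehicle, against a median of 1.09. The labels name no animals or litters, so every p-value measures the spread between these libraries only.

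The stretches before 4 of the genes are shown because they hold the letters of a heat shock element. RefSeq promoters (GRCm38.p6) were matched for 8 of the 10 genes. The sequence GAANNTTC or TTCNNGAA, each of which reads the same on both strands, was found in the 250 bases before the start of 5 of these 8, against 12.8% of 32851 promoters of the same length. Hspb1 on the plus strand of chromosome 5 is shown from chr5:135887767-135887864. Hspa1a, at chr17:34972218-34972295, and Hspa1b, at chr17:34959300-34959377, both lie on the minus strand, and 247 of the 250 bases before their starts are identical. For Hspe1, on the plus strand at chr1:55088053-55088082, only 30 bases are shown because an exon of its divergent neighbour Hspd1 lies there. Sequences run 5′ to 3′ on the strand of the gene, with the matches in capitals.
Hspb1: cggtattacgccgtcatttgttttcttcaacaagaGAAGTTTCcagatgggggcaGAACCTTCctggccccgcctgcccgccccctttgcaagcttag
Hspa1a: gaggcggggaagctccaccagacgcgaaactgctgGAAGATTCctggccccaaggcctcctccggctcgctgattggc
Hspa1b: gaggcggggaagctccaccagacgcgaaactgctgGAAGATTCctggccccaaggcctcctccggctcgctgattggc
Hspe1: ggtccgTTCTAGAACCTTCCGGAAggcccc
Hspb1 holds 2 matches, and Hspe1 holds 3 that overlap into a run of units. Of the 8 promoters, that of Hspe1 alone held a match of 3 units (GAANNTTCNNGAA or TTCNNGAANNTTC), which 0.466% of all promoters hold. Hsph1 has 1 match nearer its start, within the 40 searched bases that the GENCODE annotation places inside the gene. No match lies in the windows of Dnajb1, Chordc1 and Bag3, but 142 of the 250 bases searched for Chordc1 lie inside its GENCODE gene. A match is a description of letters, not of binding.

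Hspa8 and Hsp90aa1 were the most abundant. Per kilobase of exon, Hspa8 (the constitutive HSC70, chr9:40800984-40810087) averaged 13060.4 normalized counts and Hsp90aa1 (the inducible HSP90 isoform, chr12:110690605-110702728) averaged 7822, followed by Hsph1 (an HSP110 that exchanges nucleotide on HSP70) at 1203. Hspe1, which encodes the mitochondrial co-chaperonin HSP10 although it is grouped with cytosolic heat shock genes, was at 744 and Dnajb1 (an HSP40 that stimulates HSP70) at 496. Chordc1 (an HSP90 co-chaperone) was at 292. The lowest were Hspb1 at 121, Hspa1b at 118, Hspa1a at 117 and Bag3 (an HSP70 co-chaperone that directs clients to autophagy) at 69.4. Hspa8 and Hsp90aa1 together hold most of the signal, 55.3% and 30.3% of it.

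Hspa1b, Hspb1 and Hspa1a varied most across groups. The highest of the 12 group means was 2.39 times the lowest for Hspa1b, 2.33 times for Hspb1 and 1.76 times for Hspa1a, against 1.38 times for Chordc1, 1.24 times for Bag3, the gene of lowest level per kilobase, and 1.07 times for Hspa8. Spread inside the groups followed the same order at its ends: the median coefficient of variation over groups was 19.7% for Hspa1b and 19.1% for Hspb1 and 6.05% for Hspa8. In bulk tissue, fewer cells of a type and less RNA per cell cannot be told apart for any of these levels.

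Under lithium 6 of the members were higher. Averaged over the 4 combinations of genotype and sex, 6 of the 10 genes rose and 0 fell (limma on log2 of the normalized count plus 1, adjusted p under 0.05), where 22.6% of all tested genes were called, 11.4% higher and 11.2% lower. The 6 are Hspb1, Hspa1b, Hspa1a, Chordc1, Dnajb1 and Hspe1. The median difference of the 10 genes was 0.15 on the log2 scale, and that of all genes was 0.00.

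Hspb1 (chr5:135887919-135889563) encodes the small heat shock protein HSP25, the mouse counterpart of human HSP27, which holds unfolded proteins and stabilises actin. In HT males its normalized counts were 70.3, 76.5, 92.5, 60.4 and 89.0 under vehicle, and 203, 251, 203, 125 and 124 under lithium. Every lithium library lay above every vehicle library there, and the 2 lowest lithium libraries stood apart from the other 3. HT females had 152, 54.6, 118, 112 and 122 under vehicle and 199, 225, 151, 153 and 153 under lithium, where 1 vehicle library reached the lowest lithium libraries. In WT males the vehicle libraries read 65.8, 109, 93.4, 80.5 and 123 and the lithium libraries 129, 132, 141, 167 and 120.5, so that the groups overlapped by 1 library on each side. In WT females the values were 126, 115, 144, 99.6 and 118 under vehicle and 145, 158, 164, 122 and 175 under lithium, again with 1 lithium library inside the vehicle range. Across all arms Hspb1 rose by 0.70 ± 0.10 on the log2 scale (SE; limma, adjusted p = 5.3e-07), a 1.62-fold difference, and 20 of 20 lithium libraries lay above the vehicle mean of their arm. About 44.0% of the 100-base windows of the annotated transcripts of Hspb1 also occur in the pseudogene Hsp25-ps1, so part of its reads cannot be assigned by sequence.

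Hspa1a (chr17:34969190-34972156) and Hspa1b (chr17:34956436-34959238) encode the stress-induced HSP70. They are single-exon copies on the minus strand with 9951 bases between them, and 48.6% of the 100-base windows of Hspa1a and 49.9% of those of Hspa1b occur in another gene, mainly the other copy, so the split of reads between them is uncertain. Hspa1b had 121, 292, 332, 281 and 303 normalized counts in HT vehicle males and 515, 709.9, 564, 438 and 408 in HT lithium males. All lithium values were above all vehicle values, with 1 vehicle library far below the rest. Hspa1b in HT females was 320.2, 256, 330.5, 328 and 395 under vehicle and 483, 731, 537, 359.8 and 351 under lithium, which overlap. Hspa1a in HT males went from 156, 347, 393, 296 and 340.2 under vehicle to 454, 576, 438, 393 and 467 under lithium, 2 groups that meet without overlapping.

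In WT the Hspa1b values overlapped: 243, 237, 231, 189 and 201 under vehicle against 370.4, 359.7, 519.5, 238 and 308 under lithium in males, and 228, 298, 193, 284 and 266 against 364, 325, 299, 276 and 361 in females. One WT male lithium library and 1 WT female lithium library fell among the vehicle values. Across all arms Hspa1b rose by 0.65 ± 0.10 on the log2 scale (SE; limma, adjusted p = 2.9e-06), with 20 of 20 lithium libraries above their vehicle mean. Hspa1a rose by 0.32 ± 0.08 (adjusted p = 0.0024), in 18 of 20. The sum of both genes, which does not depend on how reads were split between them, averaged 585 ± 127 normalized counts (SD, n = 20) under vehicle and 821 ± 194 under lithium, and rose by 0.49 ± 0.09 on the log2 scale (limma, adjusted p = 2.6e-05).

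**Figure D1:**
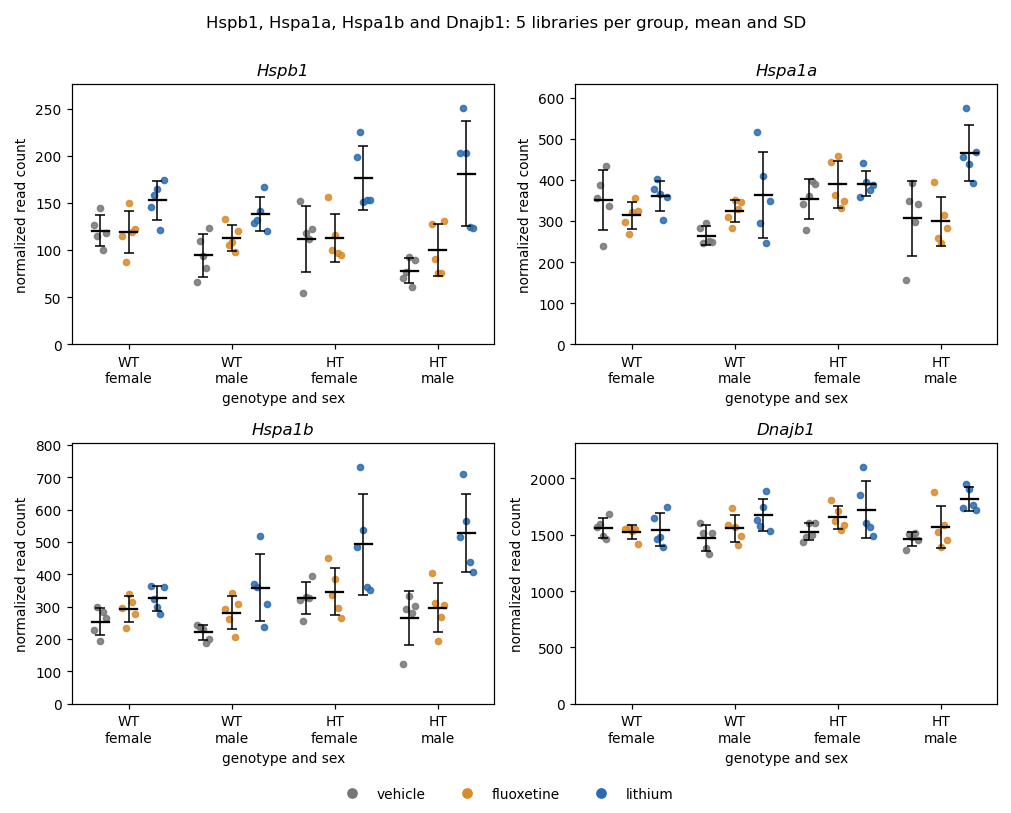
Normalized read counts (y axis, from 0) of Hspb1, Hspa1a, Hspa1b and Dnajb1 in each of 60 libraries, by genotype and sex (x axis) and treatment (colour); bars are the mean and SD of 5 libraries. In HT males all 5 lithium libraries lie above all 5 vehicle libraries for each of the 4 genes, for Hspa1a by a hair (393.2 against 393.0). In that comparison 13.2% of all tested genes were called, and the share of all genes without overlap was not counted.

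Dnajb1, Hspe1 and Chordc1 rose by less. Dnajb1 (chr8:83608193-83612653) stood at 1362, 1505, 1484, 1518 and 1452 in HT vehicle males and at 1739.8, 1953, 1903, 1759.7 and 1717 in HT lithium males, with no overlap. In WT females its mean was 1562 ± 88.3 (SD, n = 5) under vehicle and 1545 ± 148 under lithium, so no difference was visible there. Over all arms it rose by 0.16 ± 0.04 on the log2 scale (limma, adjusted p = 0.00082), in 16 of 20 libraries.

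Hspe1 (chr1:55088132-55091307) was 978, 1088, 1032, 1014 and 1009.9 in WT vehicle females and 1415, 1189.6, 1232, 1128 and 1078 in WT lithium females. The lowest lithium library lay just under the highest vehicle library. Hspe1 rose over all arms by 0.15 ± 0.04 on the log2 scale (limma, adjusted p = 0.0068), and its partner in the chaperonin, Hspd1 (HSP60), differed by 0.00 ± 0.03 (adjusted p = 0.97). Chordc1 (chr9:18292125-18317442) read 1939.5, 2129, 1938, 2102 and 1921 in HT vehicle females and 2197, 3075, 2745, 2638 and 2027 in HT lithium females, with 1 lithium library inside the vehicle range. Chordc1 rose by 0.20 ± 0.05 (limma, adjusted p = 0.0023), in 16 of 20 libraries.

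Hspa8, Hsph1, Bag3 and Hsp90aa1 were not called. Hspa8 averaged 55809.6 ± 2876 normalized counts under vehicle and 54976 ± 3785 under lithium (SD, n = 20 each), a log2 difference of -0.02 with a 95% interval of -0.09 to 0.04. Hsph1 (chr5:149614287-149636376) differed by 0.04 (95% interval -0.03 to 0.12) and Bag3 (chr7:128523616-128546981) by -0.02 (95% interval -0.17 to 0.12). Hsp90aa1 was lower by point estimate, at -0.09 ± 0.04 (limma, adjusted p = 0.07), and its constitutive relative Hsp90ab1 fell by 0.11 on the log2 scale (adjusted p = 0.02).

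The lithium difference of Hspb1, Hspa1b, Hspa1a and Dnajb1 was larger by estimate in libraries labelled HT than in WT, and that of Hspe1 was smaller (0.10 against 0.19). In HT, 5 of the 10 genes rose (14.6% of all tested genes called, 7.44% higher and 7.14% lower): Hspb1 by 0.94 ± 0.14 on the log2 scale (limma, adjusted p = 5.8e-06), Hspa1b by 0.80 ± 0.14 (9.8e-05), Hspa1a by 0.40 ± 0.11 (0.011), Dnajb1 by 0.24 ± 0.05 (0.00098) and Chordc1 by 0.21 ± 0.07 (0.033). In WT, 3 rose (4.57% of all tested genes called, 2.46% higher and 2.11% lower): Hspa1b by 0.51 ± 0.14 (adjusted p = 0.025), Hspb1 by 0.45 ± 0.14 (0.045) and Hspe1 by 0.19 ± 0.06 (0.045). The WT calls are near the threshold: with depth as a covariate none of the 3 was called, at adjusted p between 0.11 and 0.18, and Hspb1 and Hspe1 each lost the call in 14 of 20 fits that left out 1 library. Chordc1 in HT lost it in 9 of 20. The difference between genotypes was itself tested and called 0 members and 0 genes of all tested (0.0% called; limma), with 2 members at an unadjusted p under 0.05, and with 0 members by edgeR and by DESeq2. For Hspb1 that difference was 0.49 ± 0.20 (95% interval 0.09 to 0.88, adjusted p = 0.88), and for Hspa1b 0.28 ± 0.20 (95% interval -0.12 to 0.69). Without the 2 libraries of low weight it was 0.47 for Hspb1 and 0.15 for Hspa1b.

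Within HT males alone, Hspb1 rose by 1.17 ± 0.20 on the log2 scale, Hspa1b by 1.04 ± 0.20, Hspa1a by 0.66 ± 0.16 and Dnajb1 by 0.31 ± 0.07, while Hsp90aa1 fell by 0.22 on the log2 scale (limma, adjusted p = 0.0001, 0.00045, 0.0048, 0.0033 and 0.029, with 13.2% of all tested genes called, 6.61% higher and 6.58% lower). Hsp90aa1 there was 35905, 33102, 29894, 30549 and 28460.1 under vehicle and 26742, 25606, 29859.7, 27090.1 and 25781 under lithium, with 1 lithium library inside the vehicle range. Without the 2 libraries of low weight, one of which is an HT vehicle male, Hspb1 was at 1.14, Hspa1b at 0.78, Hspa1a at 0.43 and Dnajb1 at 0.28, all still called, and the Hsp90aa1 call was lost (adjusted p = 0.096). The summed level of 12 striatal markers in HT vehicle males ranged from 10551 to 30342 normalized counts (median 27300), and in HT lithium males from 12502 to 15475 (median 13166); the part of this in the HT male differences was not tested. In the other 3 arms limma called 0 members with all libraries. Without the 2 libraries of low weight, which are in none of those arms but enter the fit of the spread, Hspb1 (0.71, adjusted p = 0.042) and Chordc1 (0.32, adjusted p = 0.046) were called in HT females and Hspa1b (0.66, adjusted p = 0.029) in WT males. With all libraries, the shares of all genes called were 1.23% in HT females, 0.814% in WT females and 1.75% in WT males. In that fit 4, 1 and 5 members, in the same order of arms, had an unadjusted p under 0.05. The shares for the fit without the 2 libraries are not given here. In those arms the Hspb1 differences were 0.71, 0.34 and 0.57. A test of whether the lithium difference depended on sex called 0 members (0.0112% of all genes called; edgeR and DESeq2 also 0), with 2 at an unadjusted p under 0.05, Hspa1a at 0.43 ± 0.16 (adjusted p = 0.44) and Dnajb1 at 0.17 ± 0.07 (adjusted p = 0.48).

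**Figure D2:**
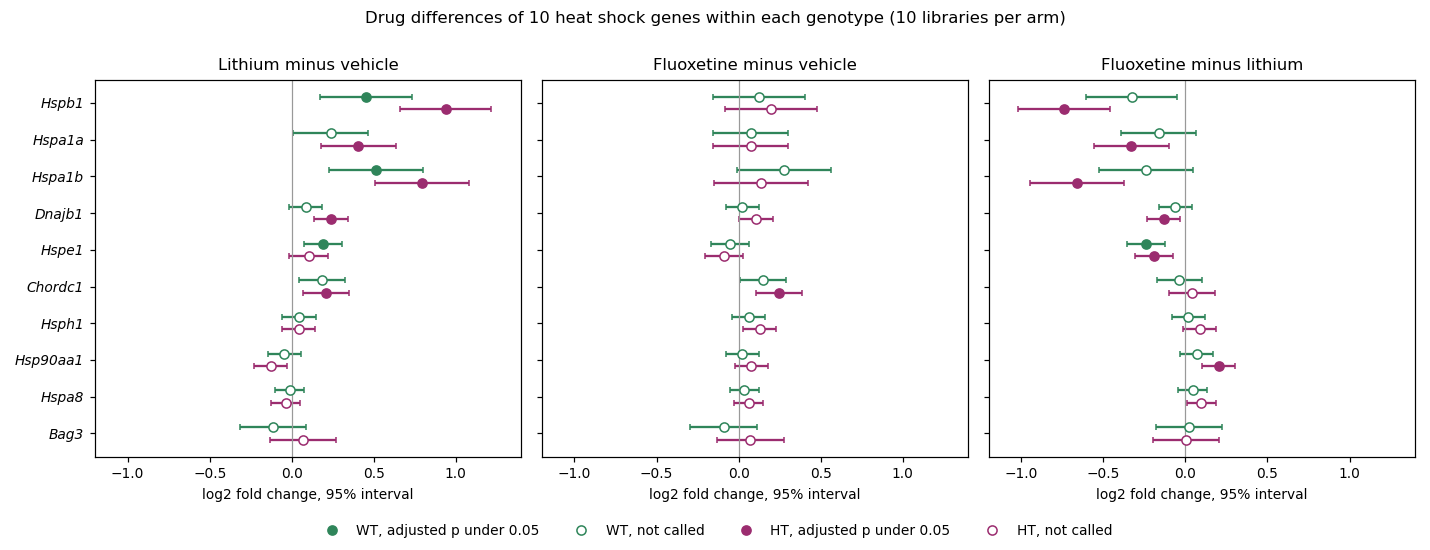
Log2 fold change with its 95% interval (x axis) of each of the 10 genes (y axis) for lithium minus vehicle, fluoxetine minus vehicle and fluoxetine minus lithium, in WT (green) and HT (purple), 10 libraries per arm; filled points have an adjusted p under 0.05. Hspb1 and Hspa1b have the largest lithium differences in both genotypes, 0.45 and 0.51 in WT and 0.94 and 0.80 in HT, and Chordc1 in HT, at 0.25, is the filled point for fluoxetine against vehicle.

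Depth differed between drug and vehicle libraries in females under both drugs and in males under fluoxetine. In those comparisons the depths of drug and vehicle libraries did not overlap, so depth and drug cannot be told apart there. A call lost with depth as a covariate therefore cannot by itself be assigned to depth. The depth of each library was entered as such a covariate in a further fit. Under it Hspb1 stayed at 0.67 (limma, adjusted p = 0.00022) and Hspa1b at 0.61 (0.00095) over all arms, while Hspa1a (0.27, adjusted p = 0.074) and Hspe1 (0.12, adjusted p = 0.12) lost the call, as did Hspa1a within HT (0.35, adjusted p = 0.079).

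Under fluoxetine Chordc1 was the member called. Over all arms 1 of the 10 genes rose and 0 fell, where 14.5% of all tested genes were called, 6.71% higher and 7.78% lower. In HT females Chordc1 read 3053, 2474, 2503, 2497 and 2314 under fluoxetine, all above the vehicle values of 1939.5, 2129, 1938, 2102 and 1921, with 1 fluoxetine library far above the others. Its difference over all arms was 0.20 ± 0.05 on the log2 scale (limma, adjusted p = 0.0043), in 18 of 20 libraries; with depth as a covariate it was 0.26 and was not called (adjusted p = 0.085). Hsph1 came next at 0.10 ± 0.04 (adjusted p = 0.061), with 9043 ± 756 normalized counts under fluoxetine and 8458 ± 605 under vehicle (SD, n = 20 each).

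Of the 6 genes that rose under lithium, Chordc1 was called under fluoxetine and the other 5 were not. Hspb1 averaged 111 ± 22.2 normalized counts under fluoxetine and 101 ± 27.4 under vehicle, a log2 difference of 0.16 (95% interval -0.04 to 0.36), and Hspa1b 304 ± 62.6 against 266 ± 63.2, a difference of 0.21 (95% interval 0.01 to 0.40, adjusted p = 0.17). By genotype, Chordc1 was the 1 member called in HT (10.2% of all genes called, 4.70% higher and 5.54% lower), at 0.25 ± 0.07 (limma, adjusted p = 0.016). That call was lost with depth as a covariate (limma, adjusted p = 0.055). In WT 0 members were called (0.208% of all genes called, 0.0843% higher), with 1 at an unadjusted p under 0.05 and 0 by edgeR and by DESeq2, and Chordc1 there was at 0.15 ± 0.07 (adjusted p = 0.44). In HT females Chordc1 was again the 1 member called (6.86% of all genes called, 2.94% higher and 3.93% lower), at 0.35 ± 0.10 (adjusted p = 0.022), a call lost in 2 of 10 fits that left out 1 library. In the other 3 arms 0 members were called, where the shares of all genes called were 0.595% in HT males, 0.0786% in WT males (0.0225% higher and 0.0562% lower) and 0.0% in WT females, and no member had an unadjusted p under 0.05. The test of a genotype difference in the fluoxetine response called 0 members (0.0% of all genes; edgeR and DESeq2 also 0), with 0 at an unadjusted p under 0.05.

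The 2 drugs were also compared with each other, in libraries that serve in the comparisons above. Relative to lithium, 5 members were lower under fluoxetine and 1 was higher, where 32.9% of all tested genes were called, 16.9% lower and 16.0% higher. Hspb1 was at -0.53 ± 0.10 on the log2 scale (limma, adjusted p = 2.8e-05), and 0 of 20 fluoxetine libraries exceeded the lithium mean of their arm. Hspa1b was at -0.45 ± 0.10 (0.00044), Hspa1a at -0.25 ± 0.08 (0.015), Hspe1 at -0.22 ± 0.04 (4.4e-05) and Dnajb1 at -0.10 ± 0.04 (0.034). Hsp90aa1 was higher under fluoxetine by 0.14 ± 0.04 (adjusted p = 0.0021), 32054 ± 2143 normalized counts against 29205 ± 2491, but with quantile normalization it was 0.07 and was not called (adjusted p = 0.16). The Dnajb1 call was lost in 12 of 40 fits that left out 1 library.

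In HT libraries the same 6 members were called between the drugs (24.8% of all genes called), with Hspb1 at -0.74 ± 0.14 and Hspa1b at -0.66 ± 0.14. Of these, Dnajb1 lost its call in 12 of 20 fits that left out 1 library and kept it in 9 of 14 alternative fits. Hspa1a lost its call in 4 of 20 fits that left out 1 library. With quantile normalization Hsp90aa1 was at 0.12 and was not called (limma, adjusted p = 0.092). In WT libraries Hspe1 alone was called (9.76% of all genes called, 4.35% higher and 5.41% lower), at -0.24 ± 0.06 (limma, adjusted p = 0.0055). The mean of Hspe1 was lower under fluoxetine than under vehicle in all 4 arms, for example 977 ± 82.6 against 1049.8 ± 100.9 in HT males (SD, n = 5 each), but its fluoxetine difference from vehicle, -0.07 ± 0.04, was not called (adjusted p = 0.26). Without the 2 libraries of low weight it was -0.11 ± 0.04 and was called (adjusted p = 0.031).

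**Figure D3:**
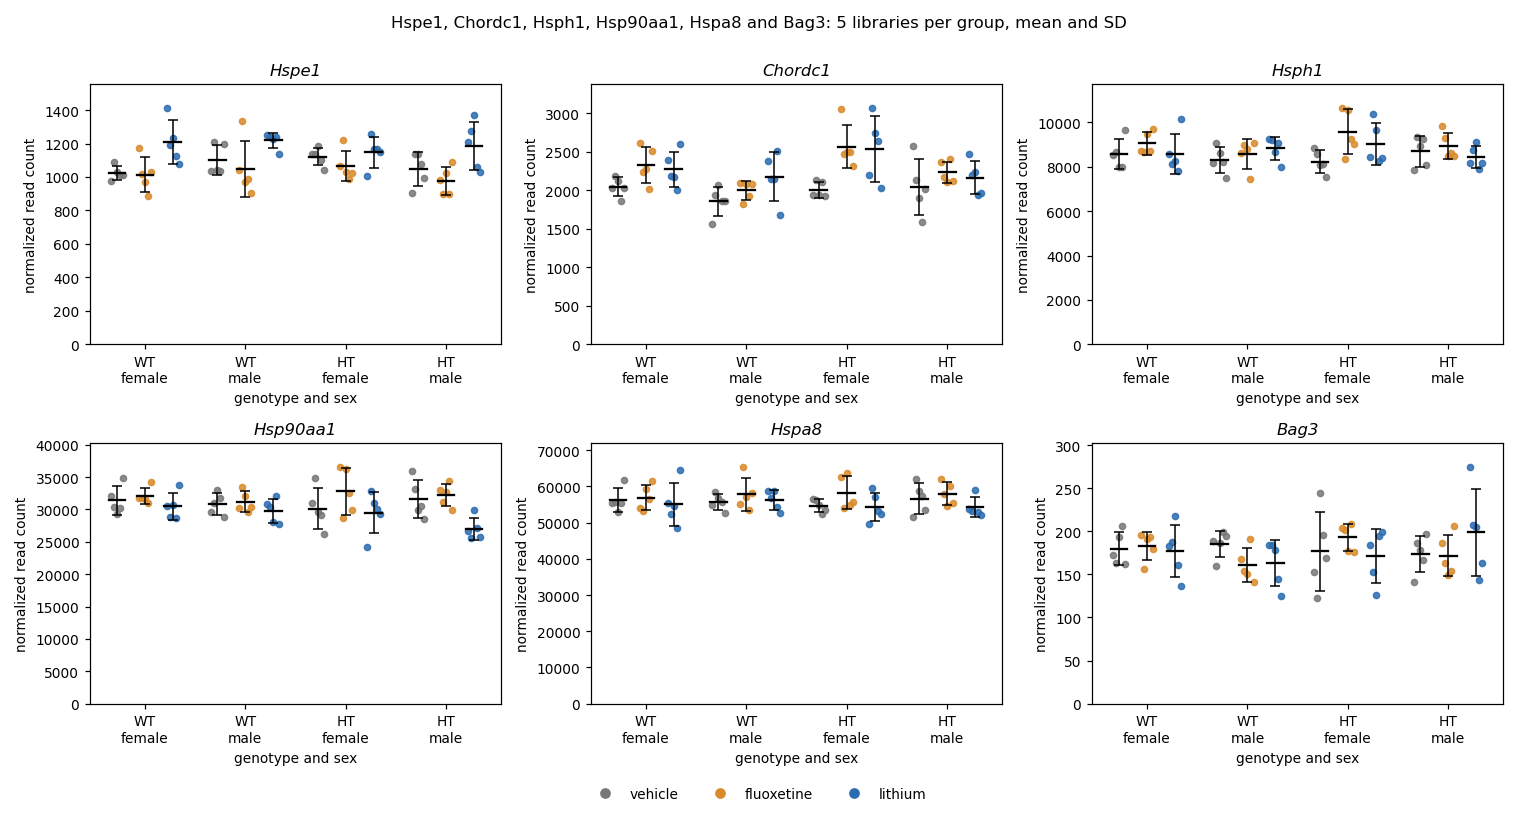
Normalized read counts (y axis, from 0) of Hspe1, Chordc1, Hsph1, Hsp90aa1, Hspa8 and Bag3 in each of 60 libraries, by genotype and sex (x axis) and treatment (colour); bars are the mean and SD of 5 libraries. Group means of Hspa8 stay between 54234 and 58209, while all 5 HT fluoxetine females lie above all 5 HT vehicle females for Chordc1. In that comparison 6.86% of all tested genes were called, and the share of all genes without overlap was not counted.

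By genotype, Hspa1b was the 1 member called over all arms, higher in libraries labelled HT (5.06% of all tested genes called). Under vehicle its group means were 254 ± 43.0 in WT females against 326 ± 49.1 in HT females, and 220.1 ± 23.7 in WT males against 266 ± 82.9 in HT males. Under lithium they were 325 ± 38.4 against 493 ± 155 in females and 359 ± 104 against 527 ± 119.5 in males (SD, n = 5 each). Its difference was 0.33 ± 0.08 on the log2 scale (limma, adjusted p = 0.013), with 26 of 30 HT libraries above the WT mean of their arm, and Hspa1a was at 0.14 ± 0.07 (adjusted p = 0.2). Since the copies share reads, the sum is the safer value, and it rose by 0.23 ± 0.07 (adjusted p = 0.038).

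Within single treatments Hspa1b was called under lithium alone, and the genotype by lithium test above did not call it. Among lithium libraries Hspa1b was at 0.56 ± 0.14 (limma, adjusted p = 0.049; 0.573% of all genes called), a call lost in 15 of 20 fits without 1 library, and the summed copies were not called (0.41 ± 0.12, adjusted p = 0.096). Under vehicle 0 members were called (0.152% of all genes called), with 0 at an unadjusted p under 0.05 and 0 by edgeR and DESeq2, and Hspa1b was at 0.28 ± 0.14 (adjusted p = 0.58). Under fluoxetine 0 members were called (0.135% of all genes called), with 1 at an unadjusted p under 0.05 and 0 by edgeR and DESeq2. Hspb1 had no steady direction by genotype: -0.22 under vehicle, -0.14 under fluoxetine and 0.27 under lithium, none called.

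Between the sexes limma called 0 members over all arms (1.19% of all genes called), with 2 at an unadjusted p under 0.05. Chordc1 came nearest, lower in males by -0.14 ± 0.04 (adjusted p = 0.059), with 6 of 30 male libraries above the female mean of their arm. DESeq2 called 1 member and edgeR 0. Over 13 alternative fits the count was 0 to 2, and 8 of the 13 kept it at 0. Of 60 fits that left out 1 library, 7 called 1 member.

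Library by library, Hsph1, Hspa8 and Hsp90aa1 moved together. After the mean of each group was subtracted, Hsph1 and Hspa8 moved together most closely over the 60 libraries (r = 0.86, rho = 0.87), and both moved with Hsp90aa1 (r = 0.63 and 0.64). Hsph1 shares no 100-base window with another gene, Hspa8 included. Of the 100-base windows of Hspa8 28.2%, and of those of Hsp90aa1 38.0%, occur in other genes, so part of their reads cannot be assigned by sequence. Among Hspa1b, Dnajb1 and Hspb1 r was lower, 0.56 for Hspa1b with Dnajb1, 0.46 for Hspa1b with Hspb1 and 0.39 for Hspb1 with Dnajb1. Hspa1b also moved with Hsph1 (r = 0.53) and Hspa8 (r = 0.52). Hspa1a with Hspa1b (r = 0.76) share reads. Hspb1 and Hsp90aa1 were at r = -0.09 and Hspa1a and Hsp90aa1 at r = -0.13. Bag3 was at r = -0.33 with Hsp90aa1 and at r = 0.38 with Hspb1. Without the 2 libraries farthest from the median of the partner gene, the Bag3 values were -0.26 and 0.29. Over all 45 pairs the median r was 0.26. These correlations describe libraries that share dissection, depth and sequencing, and the genes were chosen as a set, so no p-value is attached.

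**Figure D4:**
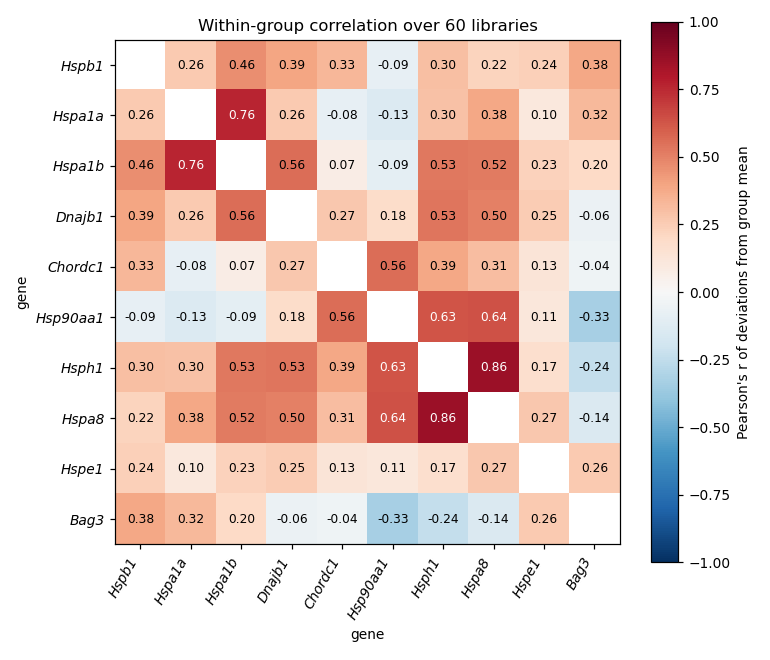
Pearson's r between each pair of the 10 genes (both axes) over 60 libraries, after subtracting each group's mean from log2 values; red is positive and blue negative. Hsph1 and Hspa8 have the highest value, 0.86, Hsp90aa1 and Bag3 the lowest, -0.33.

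Other genes of the heat shock system were read from lists chosen by function. Of 5 measured genes for heat shock factors and their binding protein, 2 rose under lithium and 0 fell, where 11.4% of all tested genes were called higher: Hsf2 by 0.14 ± 0.04 on the log2 scale (limma, adjusted p = 0.01) and Hsf1, the main stress factor, by 0.10 ± 0.04 (adjusted p = 0.039). Among 45 other chaperones and co-chaperones, 8 rose and 4 fell, with a median of 0.01 against 0.00 for all genes, and with 22.6% of all tested genes called. The clearest were Fkbp5, an HSP90 co-chaperone of steroid receptors, which rose by 0.77 ± 0.09 (adjusted p = 3.9e-09), Dnajc3, an HSP40 of the endoplasmic reticulum, by 0.27 ± 0.04 (1.1e-06), Dnaja4 by 0.16 ± 0.03 (1.9e-05), and Dnajb2, a neuronal HSP40, which fell by 0.25 (1.8e-07). Dnaja1, a partner of HSP70, was at -0.01 ± 0.04 (0.87), and the small heat shock gene Cryab at -0.17 ± 0.08 (0.11). None of the 8 subunits of the CCT chaperonin was called under lithium, and their values lay between -0.04 and 0.06.

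Of 13 further genes known to be induced with heat shock, 5 rose and 1 fell under lithium (of all tested genes, 11.4% higher and 11.2% lower). Slc5a3, a myo-inositol transporter, rose by 0.34 ± 0.06 on the log2 scale (limma, adjusted p = 4.6e-05), Ier5 by 0.26 ± 0.06 (0.00075) and Gadd45b by 0.28 ± 0.07 (0.0037), while the autophagy receptor Sqstm1 fell by 0.16 (0.0015). Under fluoxetine 0 of these 13 rose and 3 fell (of all tested genes, 6.71% higher and 7.78% lower), among them Gadd45b at -0.34 ± 0.07 (0.00092). Cirbp, an RNA-binding protein induced by mild cold, fell under lithium by 0.34 (3.4e-06) and under fluoxetine by 0.15 (0.049), and its relative Rbm3 was at -0.14 ± 0.06 (0.092) and -0.11 ± 0.06 (0.22).

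Chaperone and stress genes of the endoplasmic reticulum were read from a further list. It is not separate from the list of other chaperones: Dnajc3, for example, is in both and is counted in both. Under lithium 17 of 18 rose and 0 fell, against 11.4% of all tested genes called higher, with a median of 0.23, including Hspa5, the HSP70 of that compartment (0.40 ± 0.06, limma, adjusted p = 5.3e-07), Sdf2l1 (0.55 ± 0.07, 1.1e-07), Manf (0.31 ± 0.04, 1.3e-07) and the transcription factor Atf4 (0.30 ± 0.03, 9.5e-09). Under fluoxetine 13 of 18 rose and 0 fell, against 6.71% of all tested genes called higher, with a median of 0.15. Both drugs are compared with the same vehicle libraries.

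**Figure D5:**
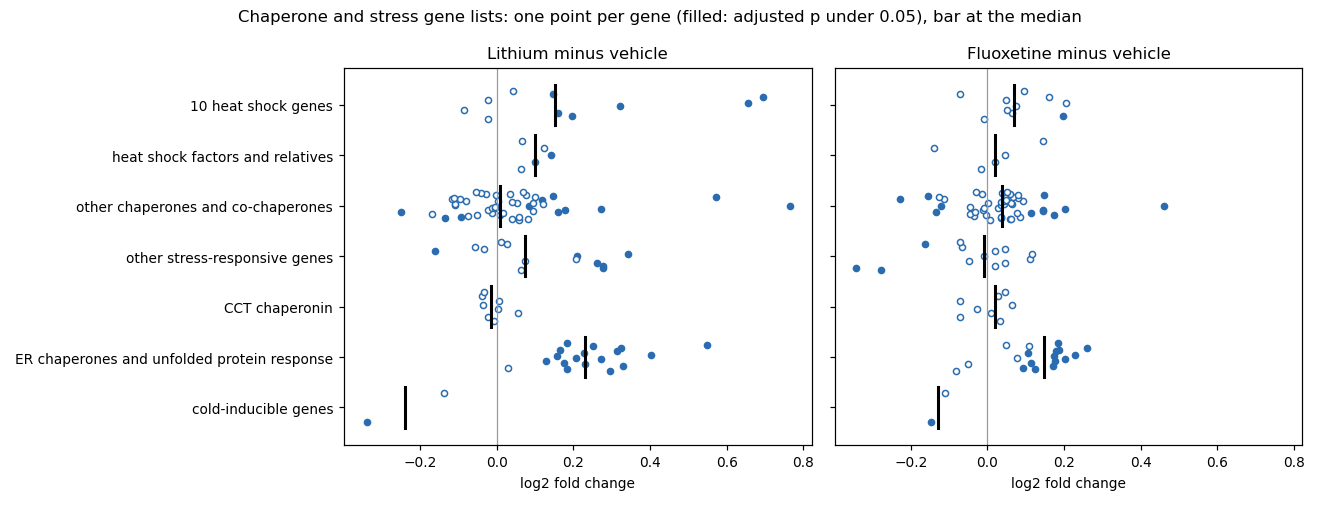
Log2 fold change (x axis) of each gene, averaged over all arms, for lithium and for fluoxetine against vehicle, by gene list (y axis); filled points have an adjusted p under 0.05 and the black bar is the list's median. Under lithium the medians are 0.15 for the 10 heat shock genes, 0.23 for the endoplasmic reticulum list and 0.01 for other chaperones.

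Markers of other cells moved with lithium too, where 11.4% of all tested genes were called higher and 11.2% lower. Of 10 oligodendrocyte markers 8 fell and 0 rose (median -0.33), led by Opalin at -0.56 ± 0.12 (limma, adjusted p = 0.00042); their summed level ranged from 73199 to 196540 normalized counts in vehicle libraries and from 56866 to 186556 in lithium libraries, with none of the 10 at 0. Of 12 markers of striatal medium spiny neurons 7 fell (median -0.26), and their sum ranged from 10551 to 30342 under vehicle and from 11246 to 15475 under lithium. Of 10 microglial markers 4 rose, C1qa by 0.18 ± 0.04 (0.00097), and of 13 endothelial and mural markers 2 rose and 3 fell. The olfactory bulb sum had a median of 7160 under vehicle and 1101 under lithium in WT males, and of 4530 and 12825 in WT females. In HT males these medians were 1618 and 1141, and in HT females 4529 and 1425. The summed level of 10 astrocyte markers had medians of 127323 under vehicle and 124533 under lithium in WT females. In WT males these were 127514 and 129097, in HT females 121446 and 126932, and in HT males 123207 and 134727. Calls for the astrocyte, cortical neuron and meningeal lists, and marker calls under fluoxetine, are not given here. The part of these marker shifts in the heat shock differences was not tested.

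The genes most like the 10 members were looked for among 12828 others. Likeness was Pearson's r to the mean z-score of the members over 60 libraries with group means removed (Hspa1a and Hspa1b summed), where 90% of candidates lay between -0.36 and 0.42. The highest were Herpud1 (0.82) and Calr (0.79), then Hexim1, Klhl8, Iars, Hyou1, Srp68, Pja1, Pdia3 and Hsp90b1, all at 0.72 or more. Of these 10, Herpud1, Calr, Hyou1, Pdia3 and Hsp90b1 belong to the endoplasmic reticulum list. Among the lowest were Cd46 (-0.77), Atp11b, Epb41l5 and Zkscan2. Over the 12 group means instead, the highest were Erp44 (0.96), Prpf3 (0.96), Acin1 (0.95) and Hsp90b1 (0.94), with Pdia3 again among the first 10.

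Of chaperones given whatever their value, Hsp90ab1 was at 0.65, Dnaja1 at 0.65 and Hspd1 at 0.62, while Cryab, at 0.41, lay inside the range of 90% of candidates. Of the cold-inducible genes, Cirbp was at -0.52 and Rbm3 at -0.03. The messages of the heat shock factors did not follow the members within groups, with Hsf1 at 0.01 and Hsf2 at 0.04.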

How the data were processed

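RNA was sequenced from mouse prefrontal cortex in 60 libraries, 5 in each of 12 groups, and, per the labels' protocols, the libraries were made with a TruSeq stranded mRNA kit. The deposited values are a signal per gene, for which the authors scaled the reads of each library by 1 size factor; the submitters' processing notes name Salmon 0.11.2, R 3.6.0, DESeq2 1.19.11 and GRCm38. The annotation and the strand setting are not given in the sources used here, so overlapping genes and near-identical copies are uncertain. Whole reads were recovered from the steps between values, 100.0% of values being whole within 0.01. Of 18088 identifiers 18077 matched a symbol.

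The filter on low values asked for a normalized count of 10 or more in 5 or more libraries (17804 genes tested, 284 removed). Log2 of the normalized count plus 1 was fitted with limma 3.58.1 (trended variance, R 4.3.3) on 12 group means with 48 residual degrees of freedom, and p-values were adjusted by Benjamini-Hochberg over all tested genes within each contrast; every adjusted p is from this fit unless another tool is named. A gene was called at an adjusted p under 0.05. A fold change on this scale understates that of low genes. Alternatives were other scalings, filters and pseudocounts, a replicate block, a depth covariate, array weights, the compared groups alone, omission of 2 libraries or of each library in turn, the Hspa1a and Hspa1b sum, and edgeR 4.0.16 and DESeq2 1.42.0 on recovered reads. The fit was tested on simulated data.

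The members and lists were chosen with earlier results of these data known. The members are described whatever their values, and other genes are up to 4 called genes of smallest p in each list, genes given in any case (Hsf1, Hsf2, Hspd1, Hsp90ab1, Dnaja1, Cryab, Cirbp and Rbm3), and the 10 highest and 5 lowest by likeness, of which 1 is not reported here. Replicate numbers did not pair libraries: 70 of 330 same-numbered pairs had r over 0.1, and 12 of 60 libraries correlated best with their own number. No value column was left unused.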

Additional observations from a re-analysis of the deposited data

Results flagged for a closer look

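In 6 of 120 sets of 5 libraries (10 genes in 12 groups), 1 library stood apart from the other 4 by more than 0.71 of the range; chance gives about 1 in 20. Hspa1b was lowest in replicate 1 of the HT vehicle males, at 121.201 normalized counts against 281 to 332 in the others, and this library also had a low array weight. Chordc1 was highest in replicate 1 of the HT fluoxetine females, at 3053.08 against 2314 to 2503. Hspe1 was lowest in replicate 5 of the WT lithium males, at 1135.34 against 1226 to 1251. Replicate 5 of the WT fluoxetine females had the lowest Dnajb1 of its group, 1416.11 against 1531 to 1568, and the highest Hsp90aa1, 34215.1 against 30949.5 to 31773. Hspa8 was highest in replicate 3 of the HT lithium males, at 59089.5 against 52082 to 53725.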

How the results depend on the processing

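No called result reversed under any alternative run; of the values that were not called, Hspa1a under fluoxetine in HT went from 0.07 to -0.04 without the 2 libraries of low weight, and in HT males Hspa1a went from 0.01 to -0.21, Hspa1b from 0.20 to -0.06. Under lithium over all arms 4 to 6 members were called by the alternatives and 6 to 7 when each library was left out in turn, and between the drugs 5 to 7 and 5 to 6. For fluoxetine against vehicle over all arms, 1 member was called; this became 0 with a depth covariate, 3 with array weights, 2 without the 2 libraries of low weight (Hspe1 added, lower) and 2 by DESeq2, and 1 to 2 when each library was left out. Hsph1 was the member added there without WT vehicle female 5, WT vehicle male 2, HT vehicle male 2, WT fluoxetine male 4 or HT fluoxetine female 2. By genotype over all arms the count was 1 to 2 with 1 library left out, 2 without HT vehicle male 1. The cause was not tested. With a replicate block, Hspb1 under lithium over all arms was 0.70 (limma, adjusted p = 4.8e-07) and the only call it changed among those given was Hspa1b by genotype under lithium (0.56, adjusted p = 0.051). Over all genes, a depth covariate took the calls from 4021 to 2466 under lithium and from 2581 to 491 under fluoxetine. Under fluoxetine no library had a depth inside the vehicle range, so depth and drug cannot be told apart in that change. Array weights gave 5111 and omission of the 2 libraries 4269 under fluoxetine. Depth limits the rare members most: Hspb1 averaged 125 ± 39.5 normalized counts over 60 libraries.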
